A study of Mchenga conophoros and Petrotilapia sp. 'chitimba' with 16 samples.

Results

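The 6 transcripts chd2, cnksr2, hdgfl2, upf2, rnf208 and rab3c were followed through whole brains of 8 adult male cichlid fish in which ribosome-bound RNA had been pulled down through the phosphorylated form of ribosomal protein S6. They were selected on values reported here: the log2 CPM (counts scaled to the size of the library, on a log2 scale) was higher in the immunoprecipitated RNA (IP) than in the total RNA (input) of the same brain in 8 of 8 fish. Each of the 6 symbols had 1 locus that matched an annotated gene, so 6 of the 61384 assembled loci are described. Of the fish, 4 were Petrotilapia sp. 'chitimba' (PC) and 4 Mchenga conophoros (MC), species that differ in how aggressively they respond to a mirror. In each species 2 fish had been given 15 min with a mirror in their home tank and 2 had not, and all brains were taken 90 min later. MC control fish were numbers 10 and 22, MC mirror fish 9 and 21, PC control fish 11 and 24, and PC mirror fish 12 and 23. Batch a held fish 9, 10, 11 and 12 and batch b fish 21, 22, 23 and 24, so each of the 2 batches had 1 fish of every species and condition. Every fish gave 1 input and 1 IP library, 16 in all, and no fish was pooled with another.

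Ribosomal protein S6 is a component of the small ribosomal subunit that is phosphorylated when neurons are active, and pulling down the phosphorylated form is used to enrich RNA that such cells were translating. Of the 6 genes, 2 act on chromatin: chd2 encodes an ATP-dependent remodeller of the chromodomain helicase family, and hdgfl2 a protein with a PWWP domain, a fold that binds methylated histones. The product of upf2 is a core factor of nonsense-mediated decay, the pathway that removes transcripts with premature stop codons, and rnf208 encodes a RING finger protein, a class that attaches ubiquitin to other proteins. In mammals, the product of cnksr2 is a scaffold of the postsynaptic density that ties Ras signalling to the membrane, and that of rab3c is a small GTPase of synaptic vesicles. These roles are known mostly from mammals and were not measured here.

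The input libraries held 10073251 to 23594320 counts and the IP libraries 1872019 to 11186928. Input libraries detected 30469 to 34760 loci and IP libraries 3714 to 10466. The 6 transcripts took 0.0522% to 0.0878% of the counts of an input and 0.186% to 0.906% of the counts of an IP library. The lowest count of any of them in any IP library was 392, for cnksr2 in PC mirror fish 12, and the lowest in any input was 96, for cnksr2 in PC control fish 24. None of the 6 was thus near a count of 0 in any library, whereas most loci of the file were at 0 in each IP library. Duplicate reads were not examined, so a count is not a count of RNA molecules. The neuronal genes snap25, with a mean of 11.51 log2 CPM over the inputs, and rtn1, with 9.85, served as the check of the brain label.

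The chromatin remodeller gene chd2 had the widest spread among fish. Its IP minus input difference on the log2 scale was 2.81 and 3.50 in MC control fish 10 and 22, 0.85 and 3.74 in MC mirror fish 9 and 21, 0.30 and 2.84 in PC control fish 11 and 24, and 1.91 and 2.90 in PC mirror fish 12 and 23. The mean was 2.36 ± 1.23 (SD, n = 8). Fish 9 and 11, both of batch a, were low, and the 4 fish of batch b were all at or above 2.84. In PC control fish 11 the difference rested on 2763 counts in IP against 2812 in a deeper input, and in MC mirror fish 21 on 21590 against 1161. Values of this kind chose all 6 transcripts, so IP against input was not tested for them, and tests are given further on only for differences of these values between fish of unlike batch, species or condition.

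For hdgfl2, the other chromatin gene, 7 of the 8 fish lay close together and 1 stood apart. The difference was 2.20 and 2.93 in MC control fish 10 and 22, 2.73 and 2.46 in MC mirror fish 9 and 21, 2.63 and 1.69 in PC control fish 11 and 24, and 2.57 and 0.15 in PC mirror fish 12 and 23. Its mean was 2.17 ± 0.90 (SD, n = 8). Fish 23 held 939 counts of hdgfl2 in IP and 1233 in input, and in the same fish chd2 was higher in IP by 2.90 and rab3c by 2.91.

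The decay factor gene upf2 was higher in IP by 1.65 and 2.46 in MC control fish 10 and 22, by 1.15 and 2.42 in MC mirror fish 9 and 21, by 1.05 and 2.66 in PC control fish 11 and 24, and by 1.56 and 2.27 in PC mirror fish 12 and 23, with a mean of 1.90 ± 0.63 (SD, n = 8). The 4 fish of batch a, up to 1.65, did not overlap with the 4 of batch b, from 2.27 up. A second locus that carried the name upf2, a run-on fragment 5177 bases away, had at most 25 counts in an input and 0 in all 8 IP libraries, and was not added to it.

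The RING finger gene rnf208 varied least. The difference was 1.41 and 2.48 in MC control fish 10 and 22, 1.68 and 2.02 in MC mirror fish 9 and 21, 1.46 and 1.61 in PC control fish 11 and 24, and 1.92 and 1.93 in PC mirror fish 12 and 23, with a mean of 1.81 ± 0.35 (SD, n = 8). No fish fell below 1.41.

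Of the synaptic pair, the scaffold gene cnksr2 had the largest mean difference of the 6, and rab3c the smallest. For cnksr2 it was 2.45 and 3.37 in MC control fish 10 and 22, 2.55 and 4.10 in MC mirror fish 9 and 21, 2.79 and 3.70 in PC control fish 11 and 24, and 1.63 and 3.11 in PC mirror fish 12 and 23, with a mean of 2.96 ± 0.78 (SD, n = 8). The vesicle GTPase gene rab3c was higher in IP by 0.30 and 2.76 in MC control fish 10 and 22, by 0.73 and 2.51 in MC mirror fish 9 and 21, by 1.11 and 2.33 in PC control fish 11 and 24, and by 1.57 and 2.91 in PC mirror fish 12 and 23, with a mean of 1.77 ± 0.99 (SD, n = 8). For both genes every fish of batch b was above every fish of batch a. With SDs of 0.35 to 1.23, most neighbours in the order of the 6 means, from cnksr2 through chd2, hdgfl2, upf2 and rnf208 to rab3c, differed by less than the spread among fish.

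**Figure D1:**
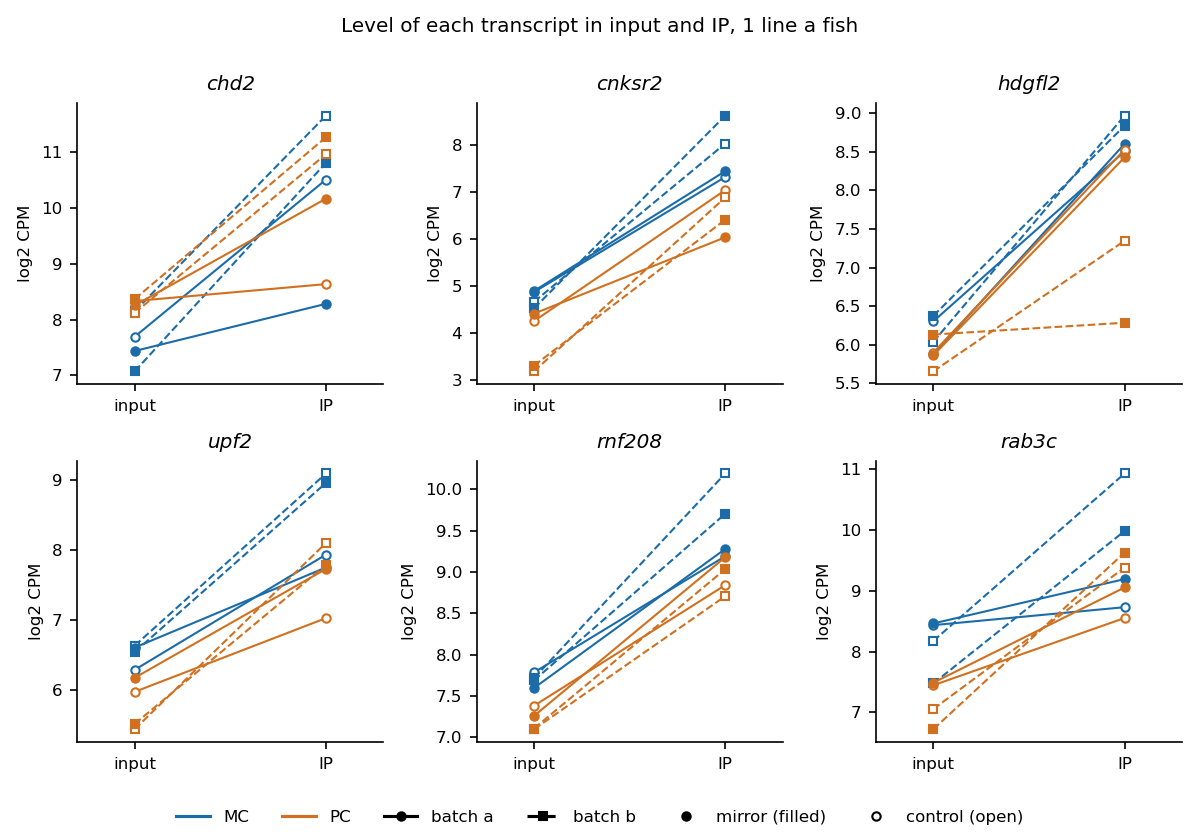
Level of each of the 6 transcripts (log2 CPM, y axis) in the input and IP library of every fish, with 1 line a fish. Blue lines are MC and orange lines PC, solid lines with circles are batch a and dashed lines with squares batch b, and filled symbols are mirror fish. Every line rises, since that chose the transcripts, and the flattest are hdgfl2 in fish 23 (0.15), chd2 in fish 11 (0.30) and rab3c in fish 10 (0.30).

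The levels behind these differences were less spread in input than in IP for each of the 6. Over the 8 fish, chd2 ranged from 7.07 to 8.37 log2 CPM in input and from 8.28 to 11.65 in IP. The ranges were 5.66 to 6.37 and 6.28 to 8.97 for hdgfl2, and 5.43 to 6.63 and 7.02 to 9.09 for upf2. For hdgfl2 the highest input level thus lay above the lowest IP level, both from batch b. The input and IP ranges did not overlap for upf2, for rnf208 (7.10 to 7.78 and 8.71 to 10.19), for cnksr2 (3.18 to 4.89 and 6.03 to 8.62) or for rab3c (6.72 to 8.46 and 8.55 to 10.93). Those of chd2 overlapped, from 8.28 to 8.37.

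A locus higher in IP in every fish was uncommon. Of 29597 loci with enough counts to be tested, 100 were, which is 0.338%. The share was 0.334% among 17054 annotated genes, 4.88% among 1517 loci with a mean log2 CPM above 5 over the 16 libraries, and 9.24% among 498 loci above 7, here called abundant. The median IP minus input difference was -3.30 over the annotated genes and -0.30 over the abundant loci. Of the 100 loci, 57 matched an annotated gene, 18 were unannotated and 11 lay within introns. By mean difference, cnksr2 was number 3 of the 100, chd2 number 5, hdgfl2 number 10, upf2 number 16, rnf208 number 18 and rab3c number 20. Within single fish, cnksr2 lay between the 93.7 and 99.7 percentile of the 1517 loci, rnf208 between 89.7 and 96.9, and upf2 between 88.7 and 99.1. The other 3 fell lower in their weakest fish, to 69.7 for chd2, 71.9 for rab3c and 64.1 for hdgfl2. These ranks and percentiles use the same differences that chose the 6, so they are a description and no test. The mean over the 16 libraries counts IP too. With 4.26 over the inputs and 7.22 over IP, cnksr2 was among the 1517 loci only through IP.

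**Figure D2:**
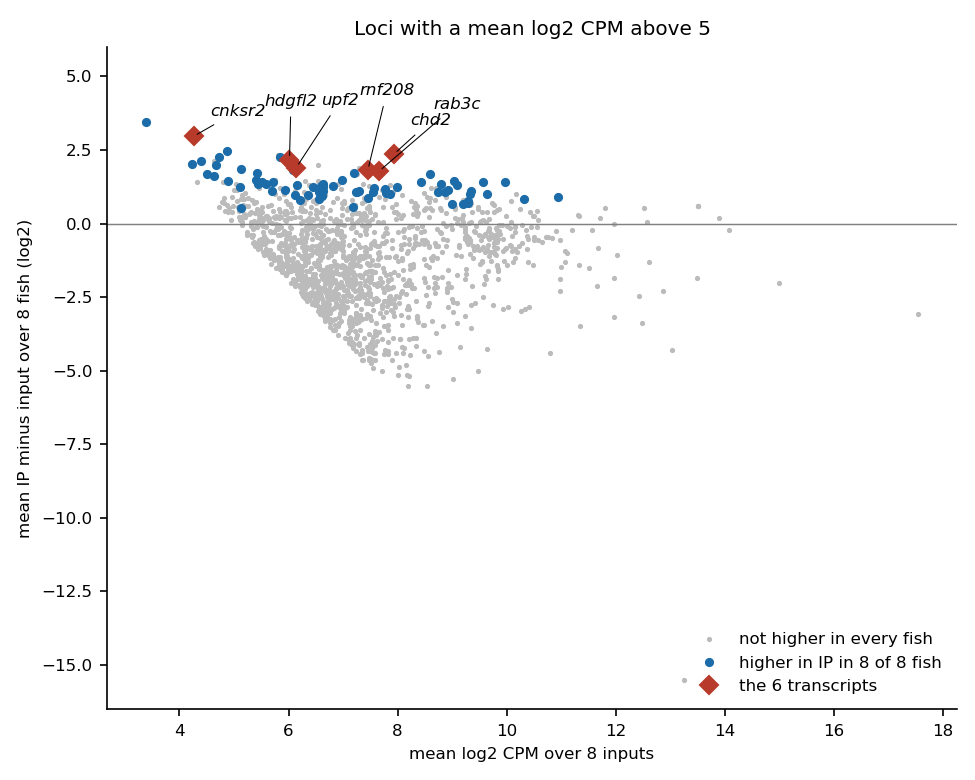
Mean IP minus input difference over 8 fish (log2, y axis) against mean log2 CPM over the 8 inputs (x axis) for the 1517 loci with a mean log2 CPM above 5. Grey points are loci not higher in every fish, blue points the loci higher in IP in 8 of 8 fish and red diamonds the 6 transcripts, whose means run from 1.77 to 2.96, and the slanting lower left edge is made by the limit on the mean.

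Close to the limit of the choice, the abundant genes with the smallest lowest difference that were still higher in 8 of 8 fish were zic2 (lowest difference 0.09), ost4 (0.09) and gabrd (0.11). Just outside it, with 7 of 8 fish higher, were sec62 (lowest difference -0.05), ubl5 (-0.12) and sem1 (-0.14). The lowest difference of hdgfl2, 0.15 in fish 23, was thus just above those of the 3 genes inside the limit.

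Cell type markers were set beside the 6 transcripts. Of the 6 neuronal markers that matched a symbol, of 13 listed, 0 were higher in IP in 8 of 8 fish, a count that with 0.338% of all tested loci meeting that rule says nothing particular about them. The synaptic vesicle gene syt1 (mean difference 0.29) and the neurofilament gene nefl (0.69) were each higher in IP in 5 of 8 fish, while snap25, the most abundant of the 6, was lower in 8 of 8 (-1.52). The median mean difference over the 6 neuronal markers was -1.67, and 2 were lower in 8 of 8 fish, beside 22.6% of all tested loci. By the edgeR test described further on, 3 were called lower (57.4% of all loci were) and 0 higher (0.331% were). With fish as a replicate block 1 was called lower, and by DESeq2 0. The summed level of the 6 was 2369 to 5260 CPM in the inputs and 1386 to 4175 CPM in the IP libraries. The markers of radial glia and astrocytes, of which 4 of 9 matched, summed to 4365 to 10937 CPM in the inputs and 1200 to 3553 CPM in IP, with aqp4 at 0 in every library. The 4 matched markers of microglia and macrophages summed to 239 to 542 CPM in the inputs and 0 to 103 CPM in IP. The 6 matched markers of endothelial and mural cells summed to 44 to 101 CPM in the inputs and 0 to 145 CPM in IP. Single genes of these lists, csf1r and pdgfrb, were detected in each of the 8 inputs and at 0 in each IP library. The share of all loci with that pattern was not counted. No red blood cell gene of the list matched a symbol. In whole brain RNA, fewer cells of a type and less RNA per cell cannot be told apart.

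The genes next to the 6 transcripts were looked at for the same pattern. Within 10 kb there were 23 loci, and 0 of them overlapped one of the 6. Of 12 annotated neighbours with counts in all 8 inputs, 2 were at 0 in all 8 IP libraries, klhl34 beside cnksr2 and slc35e3 beside upf2, and 8, these 2 included, were at 0 in at least 5. Beside chd2, the gene fam174b had 607 to 1741 counts in an input and 0 in 5 IP libraries. Beside rab3c, the kinase gene plk2 had 97 to 428 counts in an input and 0 in 7 IP libraries. Beside hdgfl2, the adaptor gene ap3d1, 266 bases away, had 173 to 939 counts in an input and 0 in 3 IP libraries. Some neighbours reached high IP counts, up to 1989 for rgma beside chd2 and 3974 for fam32a beside hdgfl2. Such zeros were common in IP. Of 104 relatives and partners of the 6 genes, described next, 16 were at 0 in all 8 IP libraries and 70 in at least 4. These relatives were not required to have counts in all 8 inputs, unlike the 12 neighbours, and the share over all loci was not counted. Whether the zeros of the neighbours are particular to these places was thus not tested.

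Relatives and partners of the 6 genes were then compared between IP and input, from lists chosen with earlier results of these data known. The 6 families gave 104 genes that could be tested beside the 6, and 0 of them were higher in IP in 8 of 8 fish, while 24 were lower in 8 of 8 (22.6% of all tested loci were). A mean difference above 0 was found for 4 of the 104. With a mean below 0, psip1 (6 of 8 fish), chd4 and chd9 (5 of 8 each) were still higher in IP in most fish. Each of these was at 0 in 1 or 2 IP libraries, and how many other genes were so was not counted. By edgeR's quasi-likelihood test with Benjamini-Hochberg adjustment, 0 of the 104 were called higher (0.331% of all 29597 loci were) and 54 were called lower (57.4% of all loci were). With fish as a replicate block 0 of the 104 were called in either direction, with limma on the difference within each fish 51 were called lower, and without both MC fish of batch a 0 of 105 were called. Of the 104 genes, 70 were at 0 in at least 4 IP libraries and 7 had counts in all 8.

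Among the chromodomain helicases, chd5 came nearest to chd2, with a mean difference of 0.65 ± 1.12 (SD, n = 8) and higher in 6 of 8 fish, and chd3 followed with 0.47 ± 1.00 and 5 of 8 fish. Neither passed the edgeR test (adjusted p = 0.257 and 0.448). The autism-associated remodeller gene chd8, with 68 to 352 counts in the inputs, was at 0 in all 8 IP libraries. Over the 8 relatives tested, 2 were called lower, beside 57.4% of all tested loci. Their median mean difference was -0.67, whereas their median log2 fold change in the edgeR fit was 0.30, of the opposite sign.

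Of the HDGF and PWWP genes, the founding member hdgf was lower in IP (log2 fold change -3.60 ± 0.81 SE, adjusted p = 0.0048 by edgeR) and higher in 1 of 8 fish. For psip1, which encodes a chromatin-bound coactivator, the mean difference was -1.25 ± 4.33 (SD, n = 8). It was higher in IP in 6 of 8 fish and at 0 in 2 IP libraries, and its edgeR log2 fold change was 0.50 ± 1.27 (SE), of the opposite sign. The median mean difference over 8 genes was -3.73, and 5 were called lower, beside 57.4% of all tested loci. In the decay pathway, upf3a, whose product binds UPF2, had a mean difference of 0.40 ± 1.06 (SD, n = 8) with 5 of 8 fish higher, and rbm8a, of the exon junction complex, 0.17 ± 0.44 with 6 of 8. The kinase gene smg1, which acts on UPF1, was at 0 in 6 IP libraries. The median over 15 decay genes was -3.29, and 7 were called lower, beside the same 57.4% of all tested loci.

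Genes around the synaptic pair were mostly lower in IP, as tested loci were in general. Each count called lower here stands beside 57.4% of all tested loci, and with fish as a replicate block none of these genes was called. The active zone gene rims2, whose product binds Rab3, had a mean difference of -0.69 ± 1.38 (SD, n = 8) and was higher in 1 of 8 fish, and rab3a, a close relative of rab3c, had -2.48 with 1 of 8. Of 15 Rab3 genes 7 were called lower, with a median of -3.65. Of 15 genes around cnksr2, 8 were called lower, with a median of -2.89, and its paralog cnksr3 had counts in 1 IP library. The 43 other rnf genes had a median of -3.61, 25 were called lower, and rnf7 was higher in 4 of 8 fish. Beside the -3.30 over all annotated genes, 5 of the 6 list medians lay between -3.73 and -2.89, and that of the chromodomain helicases was higher.

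**Figure D3:**
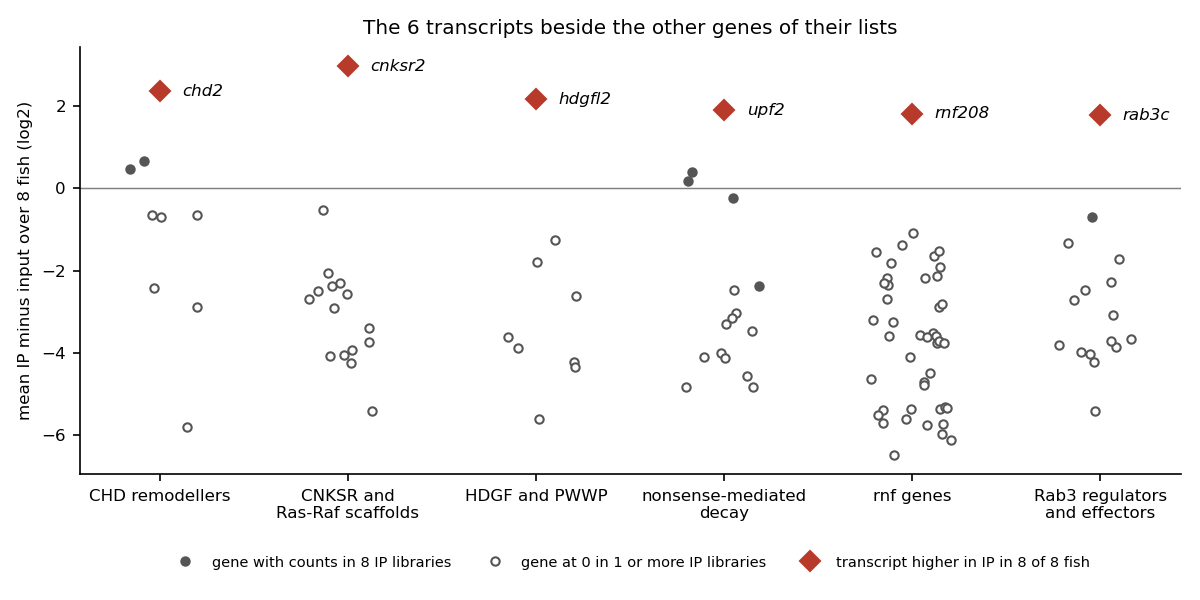
Mean IP minus input difference over 8 fish (log2, y axis) for the other genes of each of the 6 lists (x axis). Red diamonds are the 6 transcripts, filled grey points genes with counts in all 8 IP libraries and open points genes at 0 in 1 or more of them. The red diamonds lie above every other point of their list. That they lie above 0 follows from how the 6 transcripts were chosen, and their place above the other genes was not tested.

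The genes whose 8 IP minus input values were most like those of each transcript were looked up among 619 annotated genes with a mean log2 CPM above 5, by the root mean square of the 8 differences between the genes. The translation initiation factor gene eif5b was the nearest to upf2, at 0.39, and to rab3c, at 0.50, and the second nearest to rnf208, at 0.45. The sulfotransferase gene gal3st3 was the nearest to rnf208, at 0.45, and the second to hdgfl2, at 0.91. Some of the 6 were also near each other, with upf2 at 0.50 from rnf208, at 0.57 from rab3c and at 0.82 from chd2. The transcription factor gene fosl2 was the nearest to hdgfl2, at 0.83, and chd2 to cnksr2, at 1.13. These are descriptions over 8 fish that share their libraries. The distance uses the values that chose the 6. Nearness among them, and to other genes higher in IP in most or all fish, thus follows in part from the choice.

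The IP minus input values of the batches did not overlap for 4 of the 6, though none of the 6 passed the test of the batches given below. Batch b was above batch a with no overlap for chd2 (3.24 ± 0.44 against 1.47 ± 1.12, SD, n = 4 each), cnksr2 (3.57 ± 0.43 against 2.36 ± 0.51), upf2 (2.45 ± 0.16 against 1.35 ± 0.29) and rab3c (2.62 ± 0.26 against 0.92 ± 0.54). Over all tested loci, 2.37% were above in batch b with no overlap, and 3.41% of the abundant loci. For rnf208 the batches overlapped (2.01 ± 0.36 against 1.62 ± 0.24), and for hdgfl2 batch b was the lower on average (1.81 ± 1.22 against 2.53 ± 0.23). This split was looked at after the values had been seen.

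The difference of enrichment between the batches came from an edgeR fit with a batch term for each fraction, added after the values had been seen. It was 1.78 ± 0.61 (log2, SE) for chd2 (adjusted p = 0.122) and 1.69 ± 0.64 for rab3c (adjusted p = 0.171). Of the 6, 0 passed, against 8.35% of all tested loci. Leaving out any single fish left 0 loci called. The level of chd2 in the inputs differed little between batches (0.12 ± 0.20, adjusted p = 0.983), and in the IP libraries it was higher in batch b by 1.75 ± 0.61 (adjusted p = 1, and 0.0045 unadjusted). Of all loci, 0% were called between batches in input and 0.107% in IP. IP libraries of batch a held 1872019 to 6969612 counts and those of batch b 4250470 to 11186928. Taken locus by locus, the batch b minus batch a difference of IP minus input had a median of 0.40 over the abundant loci. The medians of the abundant loci within single fish overlapped, from -0.87 to 0.45 in batch a and from -0.32 to 0.25 in batch b. The part of depth in the split was not tested.

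**Figure D4:**
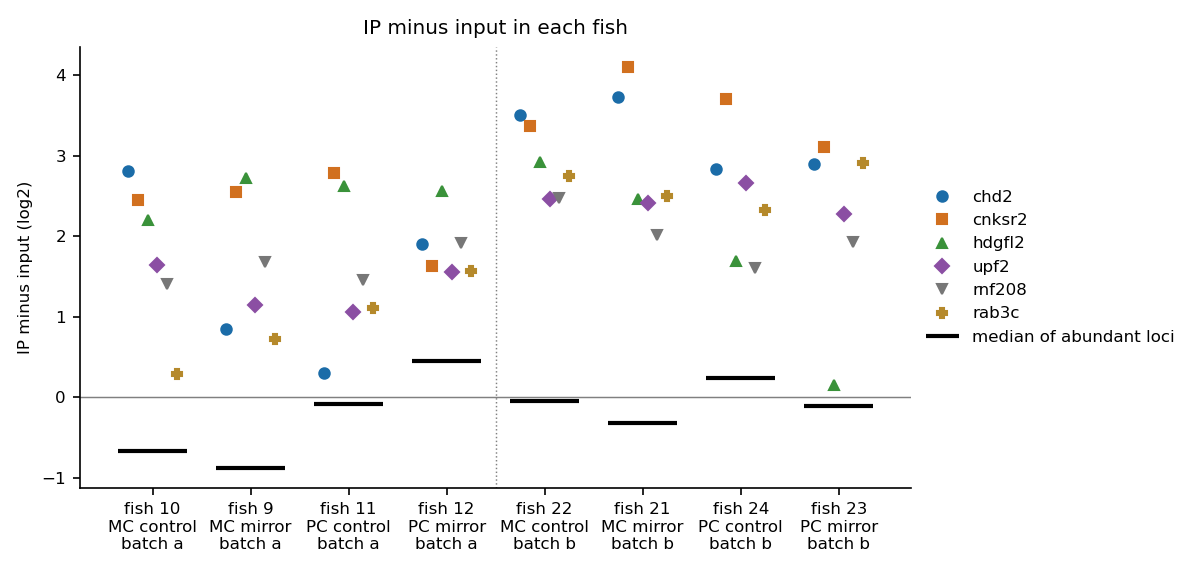
IP minus input (log2, y axis) of the 6 transcripts in each fish, ordered by batch (x axis), with 1 symbol a transcript. Black bars give the median of the 498 abundant loci in the same fish, and the dotted line parts batch a from batch b. The values of chd2, cnksr2, upf2 and rab3c in batch b are all above those in batch a, and hdgfl2 in fish 23 is at 0.15.

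The comparison of the species in total RNA asked whether the transcripts themselves differed between MC and PC brains. The choice of the transcripts used the input values of every fish, set against IP, but did not compare the species. For these comparisons log2 CPM was scaled over the 8 inputs alone. In input, chd2 was at 7.24 and 7.87 log2 CPM in MC control fish 10 and 22, at 6.96 and 6.73 in MC mirror fish 9 and 21, at 8.21 and 8.08 in PC control fish 11 and 24, and at 8.11 and 8.34 in PC mirror fish 12 and 23. All 4 PC fish lay above all 4 MC fish, as they did for 12.7% of all loci tested in input. The difference was 0.97 ± 0.20 (log2 fold change, SE, PC minus MC, adjusted p = 0.0156 by edgeR), and it was 1.06 in batch a and 0.91 in batch b. Of 28742 loci tested, 8.16% were called higher in PC and 2.28% lower.

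For rab3c the levels were 7.98 and 7.90 in MC control fish 10 and 22, 7.99 and 7.13 in MC mirror fish 9 and 21, 7.32 and 7.01 in PC control fish 11 and 24, and 7.35 and 6.70 in PC mirror fish 12 and 23. MC mirror fish 21 lay among the PC fish, and the other 3 MC fish lay above all of them. The difference of -0.67 ± 0.19 did not pass the edgeR test (adjusted p = 0.0628), with -0.65 in batch a and -0.66 in batch b. Without fish 21 it passed (-0.75 ± 0.21, adjusted p = 0.0159), as it did by DESeq2 (-0.74, adjusted p = 3.12e-04), with RLE size factors (adjusted p = 0.0382), without a low-count filter (adjusted p = 0.0200) and with the stricter filter (adjusted p = 0.0445). The rab3c difference did not pass when any other single fish or both MC fish of batch a were left out. Nor did it pass without a batch term or with all libraries in a single fit. The other 4 did not pass: cnksr2 with -0.65 ± 0.30, which was -0.22 in batch a and -1.08 in batch b, upf2 with -0.44 ± 0.24, rnf208 with -0.18 ± 0.18 and hdgfl2 with 0.04 ± 0.22, at adjusted p-values of 0.205 to 0.945.

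These species differences depended on how the inputs were scaled and on which loci were fitted. The abundant loci were higher in PC inputs by a median of 0.89 on the same scale, and 55.8% of them had all PC fish above all MC fish, so the 0.97 of chd2 was close to that of abundant loci in general. When the 1517 loci with a mean log2 CPM above 5 were fitted alone, a choice made after seeing the data that changed the size factors and the loci tested together, chd2 was higher by 0.31 ± 0.16 and did not pass (adjusted p = 0.147). The other 5 were then lower in PC and passed, among 485 of the 1517 loci called lower and 469 called higher: rab3c by -1.33 ± 0.17 (adjusted p = 0.00182), cnksr2 by -1.32 ± 0.24 (0.00544), upf2 by -1.11 ± 0.21 (0.00628), rnf208 by -0.85 ± 0.13 (0.00305) and hdgfl2 by -0.64 ± 0.19 (0.0285). The mean that picked the 1517 loci includes the IP libraries. With a mean log2 CPM of 4.26 over the inputs and 7.22 over IP, cnksr2 was among them only through IP. Its call there thus leans on the values that chose the 6. With library totals in place of size factors, chd2 was at 0.62 ± 0.21 (adjusted p = 0.102) and rab3c at -1.001 ± 0.23 (adjusted p = 0.0278). In 1 fit of all 16 libraries chd2 did not pass either (0.68 ± 0.54, adjusted p = 0.934). Under these fits chd2 kept a positive sign and rab3c, cnksr2, upf2 and rnf208 a negative one, and hdgfl2 changed sign. In each of them the fold change of chd2 was the highest of the 6.

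**Figure D5:**
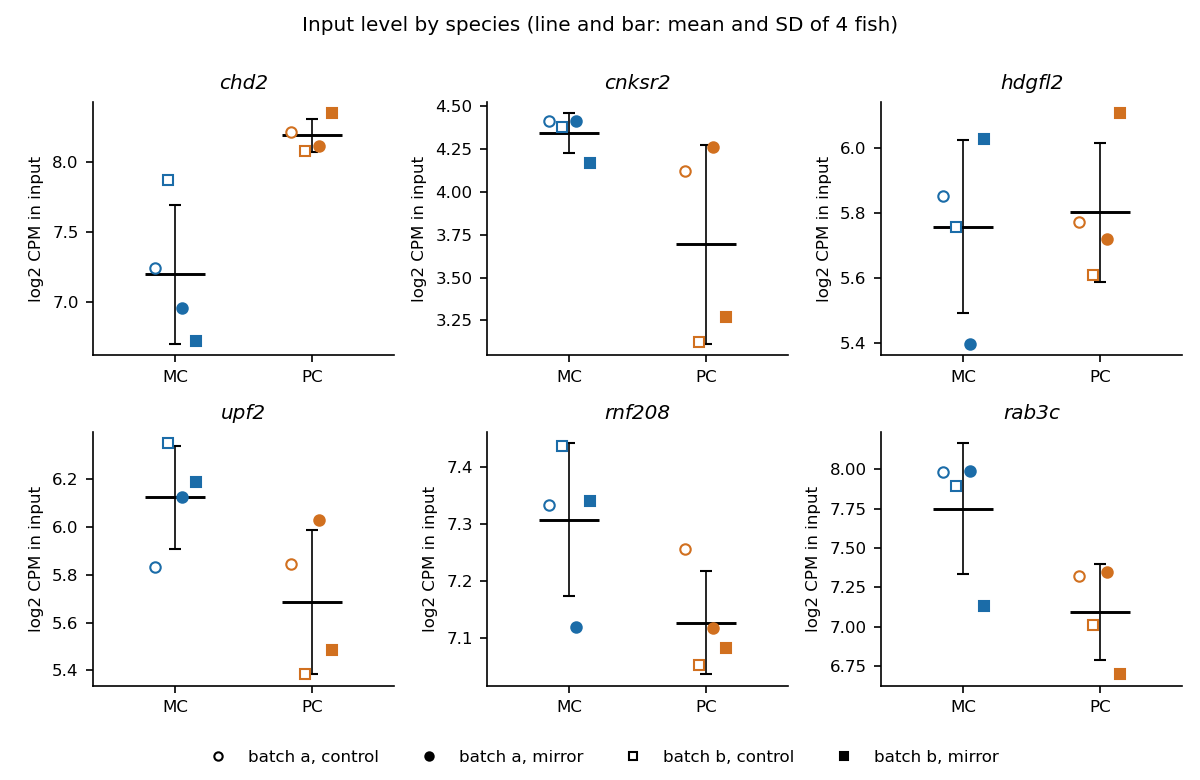
Input level of the 6 transcripts (log2 CPM scaled over the 8 inputs, y axis) in MC (blue) and PC (orange). Each point is 1 fish, circles are batch a, squares batch b, filled points mirror fish, and lines with bars give the mean and SD of 4 fish. For chd2 the PC fish (8.08 to 8.34) lie above the MC fish (6.73 to 7.87), and for the other 5 the species overlap.

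Some cell type markers differed between the species in the same inputs. By edgeR, 0 of the 6 neuronal markers were called, with log2 fold changes from -0.46 for rtn1 to 0.77 for nefl. The glial genes fabp7 (1.73 ± 0.15, adjusted p = 6.84e-04) and s100b (1.33 ± 0.14, adjusted p = 9.08e-04) were higher in PC, while the glial transporter gene slc1a2 was at -0.74 ± 0.26 and did not pass. The myelin gene mag was lower in PC (-1.01 ± 0.18, adjusted p = 0.00905), and olig1, olig2 and cldn19 were between -0.12 and 0.03. Beside these calls, 8.16% of all loci tested in input were called higher in PC and 2.28% lower. Abundant loci were higher in PC by a median of 0.89 on the scale of the inputs. Calls of the markers under other scalings are not given here. The 6 neuronal markers summed to 3984 to 5260 CPM in MC and 2369 to 3897 CPM in PC, and the markers of radial glia and astrocytes to 4365 to 5724 CPM in MC and 6513 to 10937 CPM in PC, with aqp4 at 0. The 5 matched of 8 oligodendrocyte markers summed to 1005 to 1314 CPM in MC and 248 to 792 CPM in PC. Their part in the species differences of the 6 transcripts was not tested. Both PC mirror inputs also held more counts, 22058698 and 23594320, than any other input.

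The same comparison over the lists called 5 of 15 decay genes higher in PC and 0 lower, beside 8.16% and 2.28% of all loci. They were rbm8a (2.09 ± 0.22, adjusted p = 0.00104), the splicing-linked rnps1 (2.09 ± 0.34, adjusted p = 0.00564), the cap-binding ncbp2 (1.73 ± 0.20), smg1 (1.11 ± 0.24) and the termination factor gene gspt1 (0.72 ± 0.18), and upf2 at -0.44 lay outside them. With library totals 3 of the 15 were called higher, and among the 1517 loci fitted alone 4 of the 15 were left, of which 1 was called higher and 1 lower. Of 43 rnf genes 6 were called higher, among them rnf7 (1.44 ± 0.20), and 1 lower, rnf145 (-0.90 ± 0.24). Of 15 Rab3 genes 1 was called, the vesicle priming gene unc13a, which was lower in PC (-1.27 ± 0.30, adjusted p = 0.031), and of 8 HDGF and PWWP genes 1, hdgfl3, was higher (1.01 ± 0.26, adjusted p = 0.0411). None of the 8 other chromodomain helicases and none of the 15 genes around cnksr2 passed in the main fit. DESeq2 called 2 of these 8 helicases lower, beside 2285 of 28742 loci, and library totals also 2, beside 1223. Among the 1517 loci fitted alone 2 of 4 were called lower, beside 485 of all. Around cnksr2, DESeq2 called 2 of 15 genes higher, beside 3633 of 28742 loci, and in the fit of the 1517 loci the 1 gene left was called lower. In 1 fit of all 16 libraries 0 genes of any of the 6 lists were called.

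Between IP libraries alone, the log2 fold changes of PC against MC were negative for all 6, from -1.27 for cnksr2 (-0.89 in batch a and -1.65 in batch b) to -0.08 for chd2, with standard errors of 0.59 to 1.54. None passed (smallest adjusted p = 0.874 by edgeR), against 0.815% of 10304 loci, and the median over those loci was 1.54. A missing call in IP does not show that the species were alike. All PC fish lay below all MC fish for cnksr2, at 7.34, 7.16, 6.27 and 6.70 in PC fish 11, 24, 12 and 23 against 7.63, 8.27, 7.76 and 8.88 log2 CPM in MC fish 10, 22, 9 and 21. The same held for rnf208, at 8.98 to 9.42 in PC against 9.51 to 10.43 in MC. Of all loci tested in IP, 0.951% were below in PC with no overlap. The difference of enrichment between the species ranged from -0.76 ± 0.76 for chd2 to 0.27 ± 0.84 for rab3c, and 0 of the 6 passed, against 0.0372% of 29597 loci.

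The mirror comparison asked whether the transcripts moved with the social challenge. In input, mirror fish differed from control fish by -0.32 ± 0.20 for chd2, -0.26 ± 0.19 for rab3c, -0.11 ± 0.18 for rnf208, 0.01 ± 0.29 for cnksr2, 0.07 ± 0.22 for hdgfl2 and 0.09 ± 0.24 for upf2. For chd2 it was -0.19 in batch a and -0.44 in batch b. None passed (adjusted p = 1 by edgeR, smallest unadjusted p = 0.136), against 0.0104% of loci, and mirror and control fish overlapped for all 6. Without overlap, 0.598% of all loci were above in mirror fish and 0.898% below. In IP the differences ranged from -0.31 ± 0.59 for chd2 to 0.04 ± 0.85 for rnf208, and 0 of the 6 passed, against 0.097% of loci.

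The mirror effect on enrichment, which is the measure the method is meant for, ranged from -0.33 ± 1.00 for hdgfl2 to 0.12 ± 0.71 for rnf208 by edgeR. For hdgfl2 it was 0.23 in batch a and -1.003 in batch b. Of the 6, 0 passed (smallest unadjusted p = 0.747), and of all 29597 loci 0 (0%) passed, with 1556 at an unadjusted p under 0.05 and 1821 called by DESeq2. The species difference of this effect ranged from -1.37 ± 2.33 for cnksr2 to 1.47 ± 1.54 for chd2, with 0 of the 6 and 0 (0%) of all loci called, 1711 at an unadjusted p under 0.05 and 1992 called by DESeq2. For chd2 it was 3.58 in batch a and -0.17 in batch b. In the authors' deposited table of the mirror effect the smallest adjusted p of the 6 was 0.935, for hdgfl2, and in their table of its species difference 0.49, for chd2.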

How the data were processed

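RNA of 8 whole fish brains was measured as input and IP. The authors deposited raw read counts of each assembled locus for 16 libraries, whose columns name fish and fraction, and per the file headers each locus carries a gene name and a StringTie class code. Per the submitters' processing notes cutadapt, HISAT2, StringTie and DESeq2 were used, but the sources used here give no version, setting or genome build. The authors also deposited 3 tables of log2 fold changes with p-values, used only where named, whose deposited adjusted p-values were printed as listed.

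A symbol was given the locus with class code = and the highest summed input count. Counts were analysed with edgeR 4.0.16, limma 3.58.1 and DESeq2 1.42.0 in R 4.3.3. Levels are log2 CPM with TMM size factors and a prior count of 2, scaled over 16 libraries, or over the 8 of a fraction where a fraction is compared alone. The main test was edgeR's quasi-likelihood F test (two-sided, filterByExpr, Benjamini-Hochberg over all loci of a comparison, threshold 0.05), with 1 coefficient for each group of species, condition and, in fits of 16 libraries, fraction, plus batch. Species and mirror comparisons within a fraction used its 8 libraries. In the main fits of 16 libraries input and IP shared 1 batch term, so a batch difference of enrichment stayed in the spread. That difference was read from a separate fit with a batch term for each fraction. Named beside the 6 transcripts were listed genes that were called or highest in input, the 3 genes nearest in profile, and genes at the limit of the choice, and the text gives those most useful. Other singled-out genes, neighbours among them, were chosen after their values were seen. The members and lists were chosen with earlier results of these data known.

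Input and IP of a fish come from the same animal per the labels, so the fish number pairs them. The deviations of input and IP from their group means correlated over 498 abundant loci by 0.13, 0.06, 0.64 and 0.22 in control and mirror fish of MC and then of PC. The labels do not say that fish of a group were unrelated. In fits within a fraction, p-values measure the spread among fish. The main fits of all 16 libraries had no term for the fish, so they left the pairing unused. Their p-values measure the spread among libraries of a group, with input and IP of a fish taken as separate. Fish as a replicate block was an alternative, and changed many counts of loci called, as given below. RefSeq's gene table of assembly M_conophoros_male_GT1.1 held chd2, upf2, rnf208, rab3c and, for cnksr2, cnksr2a. Sequences are not given here. The fits were tested on simulated counts. That of the inputs called most of the larger changes but few of the smallest, which were about as large as the input difference of chd2 between species. Those of IP and of enrichment called few or none, even of the largest changes. A missing call in these fits thus does not show that groups were alike.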

Additional observations from a re-analysis of the deposited data

Results flagged for a closer look

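Of 90 groups of 4 to 8 fish checked for a fish far from the others, 6 had one, and chance alone marks about 1 in 20. All 6 came from fish 21 or fish 23. Levels here are log2 CPM scaled over the 8 libraries of a fraction. For hdgfl2 the IP minus input difference of fish 23, 0.15, lay apart from the others both over all fish (1.69 to 2.93) and over the mirror fish (2.46 to 2.73). In MC inputs, fish 21 was low for cnksr2, at 4.17 log2 CPM against 4.38 to 4.42, and for rab3c, at 7.13 against 7.90 to 7.99. Among mirror fish, fish 21 was high for upf2 in IP, at 9.22 against 7.97 to 8.08, and for rnf208 in input, at 7.34 against 7.08 to 7.12.

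Among 12 mirror effects set side by side by batch, 3 had opposite signs in the species in both batches, and these differences were not tested. Each effect within a batch set 1 mirror fish against 1 control fish, so opposite signs can arise by chance. The share of all loci with such signs was not counted. In IP, mirror fish were on average 1.52 below controls for chd2 in MC and 0.89 above in PC, a difference of 2.42 on the log2 scale. For the enrichment of chd2 the species difference of the mirror effect was 3.58 in batch a and -0.17 in batch b. For cnksr2 in IP the mirror effect was 0.37 in MC and -0.76 in PC, a difference of -1.13. In input it was -0.11 in MC and 0.14 in PC, a difference of 0.25.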

How the results depend on the processing

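The number of fish in which IP was above input stayed at 8 of 8 for each of the 6 transcripts under the 6 other scalings and prior counts tried, and the mean differences ranged from 1.77 to 3.43, while the median of the abundant loci moved between -0.32 and 0.16. Of the values of the 6 transcripts under alternatives, 782 kept their direction and side of the threshold, 105 changed sign without a call or moved by more than 1 SD, 11 gained and 3 lost a call, and 1 reversed, hdgfl2 in input between species (-0.64 with loci of a mean log2 CPM above 5). No alternative called a member in a mirror comparison. IP libraries held fewer counts than the inputs, and the part of depth in these results was not tested. The cause of the changes listed here was not tested.

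In the species comparison of inputs, 1 of the 6 was called, 2 by DESeq2, with RLE size factors, without a low-count filter and with at least 10 counts in 4 libraries, 0 with all 16 libraries in 1 fit and 5 with loci above 5, and 1 to 2 without single fish. Among the loci above 5, cnksr2 was included only through its IP level. Loci called there (3000) were 5918 by DESeq2, 4633 without filter, 0 with all 16 libraries and 954 with loci above 5, and 2676 to 5406 without single fish. For the mirror comparison of inputs (3 loci) the counts were 139 by DESeq2, 272 without filter, 0 with the stricter filter, with all 16 libraries and with loci above 5, 174 without both batch a MC fish and 62 to 491 without single fish. For species in IP (84 loci) they were 1410 by DESeq2, 0 with the stricter filter, 17 without batch, 154 without both batch a MC fish, 166 with all 16 libraries, 7 with loci above 5 and 27 to 131 without single fish. For the mirror in IP (10 loci) they were 871 by DESeq2, 0 with the stricter filter, without batch and with loci above 5, 26 without both batch a MC fish, 1 with all 16 libraries, 17 with library totals and 5 to 29 without single fish.

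For the species difference of enrichment (11 loci), fish as a replicate block gave 26 loci and a replicate block by limma 0, DESeq2 2544, no filter 28, the stricter filter 24, no batch 23, leaving out both batch a MC fish 1, abundant loci 7, a batch term for each fraction 81 and single fish left out 0 to 13. For the mirror effect on enrichment and its species difference (0 loci each) the replicate block gave 4 and 4, DESeq2 1821 and 1992, no filter 2 and 1, and single fish left out 0 to 1 in both. The block changed no call of a member. For batch b against a (2471 loci), DESeq2 gave 1034, abundant loci 5, and no filter, leaving out both batch a MC fish, the replicate block by limma and single fish left out 0 each; with the stricter filter 1 member was called, on a split picked from these same values. For IP against input (98 loci higher and 16997 lower), the replicate block gave 8 and 173, limma 19 higher, DESeq2 170, RLE 163, no filter 58 and a batch term for each fraction 38 higher, the stricter filter 148 and 9744, leaving out both batch a MC fish 0 and 4, abundant loci 75 lower, and single fish left out 18 to 68 higher and 9518 to 13499 lower.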

Other observations

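Among the 100 loci higher in IP in every fish, 2 had a larger mean difference than cnksr2, and neither matched an annotated gene. One lay within an intron of LOC101474122 (mean IP minus input 3.86, lowest fish 1.48) and one was a run-on fragment beside LOC112433331 (3.46, lowest fish 1.93). Of the other annotated genes among the 100 that carry a symbol in place of a LOC number, the proteasome gene psmc3 (2.26) and the sulfotransferase gene gal3st3 (1.98, lowest fish 1.50) had the highest mean differences. These values are a description of loci chosen by the same comparison and were not tested.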
